A study of Homo sapiens with 8 samples.

Results

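A375 is a human malignant melanoma line grown from a skin tumour, and SLNCR1 is a long noncoding RNA known in melanoma for links with invasion, with the metalloproteinase gene MMP9 and with the transcription factor POU4F1. A stretch of SLNCR1 is conserved between species, and the comparison described here asks what an SLNCR1 without that stretch does to gene expression. It sets 2 libraries of cells given pcDNA3.1(-) carrying SLNCR1 without its conserved region (SLNCR1 delta cons) against 2 libraries of cells given the empty plasmid (vector), 4 of the 8 libraries in the study. The other 4 libraries are used where they show how this construct differs from its relatives: 2 came from cells given full-length SLNCR1 and 2 from cells given the conserved region alone (SLNCR1 cons). All cells were of this 1 line, were kept in medium with 10% fetal bovine serum, received their plasmid by lipofection 24 h after seeding and were harvested 48 h after transfection. Their own SLNCR1 gene stayed in place, so each construct was added to RNA that the cells already made. Of 56638 entries in the deposited table, 12454 genes had a mean of the 2 group means of at least 50 normalised reads, and these were ranked by the log2 of the SLNCR1 delta cons mean over the vector mean. The 20 lowest and 20 highest of them, and the members of 25 gene lists, are described below.

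Many of the largest changes were in genes of the circadian clock, so its wiring is given here as background. CLOCK, or its relative NPAS2, pairs with ARNTL to activate genes through a DNA motif called the E-box. The PER and CRY proteins repress that pair, BHLHE40 and BHLHE41 compete for E-boxes, and the nuclear receptors NR1D1 and NR1D2 repress ARNTL. The PAR bZIP factors DBP, TEF and HLF act on another motif, the D-box, and NFIL3 represses through it. A second group, the immediate early genes, is transcribed within minutes of a growth signal, and EGR1 and EGR2 belong to it.

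The SLNCR1 delta cons libraries held 9187241 and 8222868 reads in genes, those of full-length SLNCR1 10097194 and 9090649, those of SLNCR1 cons 11340614 and 10279988, and those of vector 12015394 and 11321294. Values of single libraries were solved for from the authors' group means and scaled over all 8 libraries. The deeper library of each group is called a and the other b, since the recovered values do not show which numbered replicate is which. The construct described here thus had the shallowest group and vector the deepest. The share of reads from the mitochondrial genome ran the other way, at 0.21% and 0.228% in SLNCR1 delta cons cells against 0.163% and 0.173% in vector cells. A set of genes chosen after their values were seen had reads in both SLNCR1 delta cons libraries and in SLNCR1 cons library a that the other 5 libraries almost lacked. COL3A1, a fibrillar collagen gene, stood at 51.2 and 45.5 normalised reads in SLNCR1 delta cons cells, 53.4 in SLNCR1 cons library a and 2 in its library b, against 4.05 and 3.55 in vector cells. The histone gene HIST1H4L had 10.0 and 8.84 in SLNCR1 delta cons cells and 9.8 in SLNCR1 cons library a, and no read in the other 5 libraries. COL1A2, another fibrillar collagen gene, and ACTG2, a smooth muscle actin gene, showed the same 3 libraries highest. Since both SLNCR1 delta cons libraries carry these reads, they cannot be told apart from the construct, and their part in the collagen and fibroblast marker values below was not tested.

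Melanocytic markers were checked as a list of 8. SOX10, the neural crest transcription factor, had 3676 and 3704 normalised reads in SLNCR1 delta cons cells against 2939.5 and 3246 in vector cells, and MITF, the pigment cell regulator, 556 and 626 against 734 and 697. The pigment genes PMEL and MLANA had at most 38.2 in these 4 libraries, and the melanin enzyme genes TYR and DCT at most 5.05, so the label holds for the lineage factors and not for pigment synthesis. Summed levels of the 8 markers were 4481 and 4556 in SLNCR1 delta cons cells against 3890.2 and 4178 in vector cells. The 5 endothelial markers summed to 43.4 and 50.5 against 49.4 and 33.8, with PECAM1 at 0 in all 4. The 7 leukocyte markers summed to 27.8 and 35.4 against 106.1 and 87.1, and the difference lay in ITGAM, an integrin gene, which had 5.56 and 15.2 against 75.3 and 60.4. ITGAM fell by 2.71 on the log2 scale in the authors' deposited table (adjusted p = 1.22e-08). The 7 fibroblast markers summed to 857 and 831 against 766 and 789.8, mostly PDGFRB. The 6 keratinocyte markers summed to 724 and 779 against 649 and 694, mostly KRT10, with DSG3 and IVL at 0. In bulk RNA, fewer cells with a transcript and less of it in each cell cannot be told apart.

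Changes in both directions were found, of different kinds. In the authors' deposited table, 387 genes rose and 397 fell at an adjusted p under 0.05, which is 1.11% and 1.14% of 34744 genes with a p-value. Among the 12454 ranked genes, 384 rose (3.08%) and 355 fell (2.85%), and these shares are the background for every count of list members by the authors' deposited table. The falls were larger: the 355 fallen genes had a median log2 of -0.57, and 63 of them fell more than 2-fold. None of the 384 risen genes rose as much as 2-fold, and their median log2 was 0.32. They were also more abundant, with a median level of 2007 normalised reads against 424 for the fallen genes. The SLNCR1 delta cons libraries were the shallowest group, and the part of depth in the rises of abundant genes was not tested. The ranked genes were split by level into 5 equal parts. In the highest (1243 to 16860.4 normalised reads), 299 rose and 28 fell, with a median log2 of 0.11 over all its genes. In the lowest (at most 181), 2 rose and 81 fell, with a median log2 of -0.083.

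Single libraries were recovered from the deposited means and fitted with limma, a linear model with moderated variances, on log2 of normalised reads plus 1. That scale understates the change of low genes. By limma 832 genes were higher (5.18% of 16073) and 842 lower (5.24%) in SLNCR1 delta cons than in vector cells at a Benjamini-Hochberg adjusted p under 0.05. Of the 784 genes called in the authors' deposited table, 772 were also called by limma in the same direction. How the libraries were scaled moved the split, to 409 higher and 1103 lower with trimmed-mean factors and to 501 and 1157 with library totals. The number of limma calls rested on single libraries as well: it was 325 without SLNCR1 delta cons library b, 271 without vector library a and 734 without SLNCR1 delta cons library a. Whether the 2 libraries of a group stem from separate cultures is not stated in the labels, so the p-values here reflect the spread among these samples only, and that spread may be technical.

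**Figure D1:**
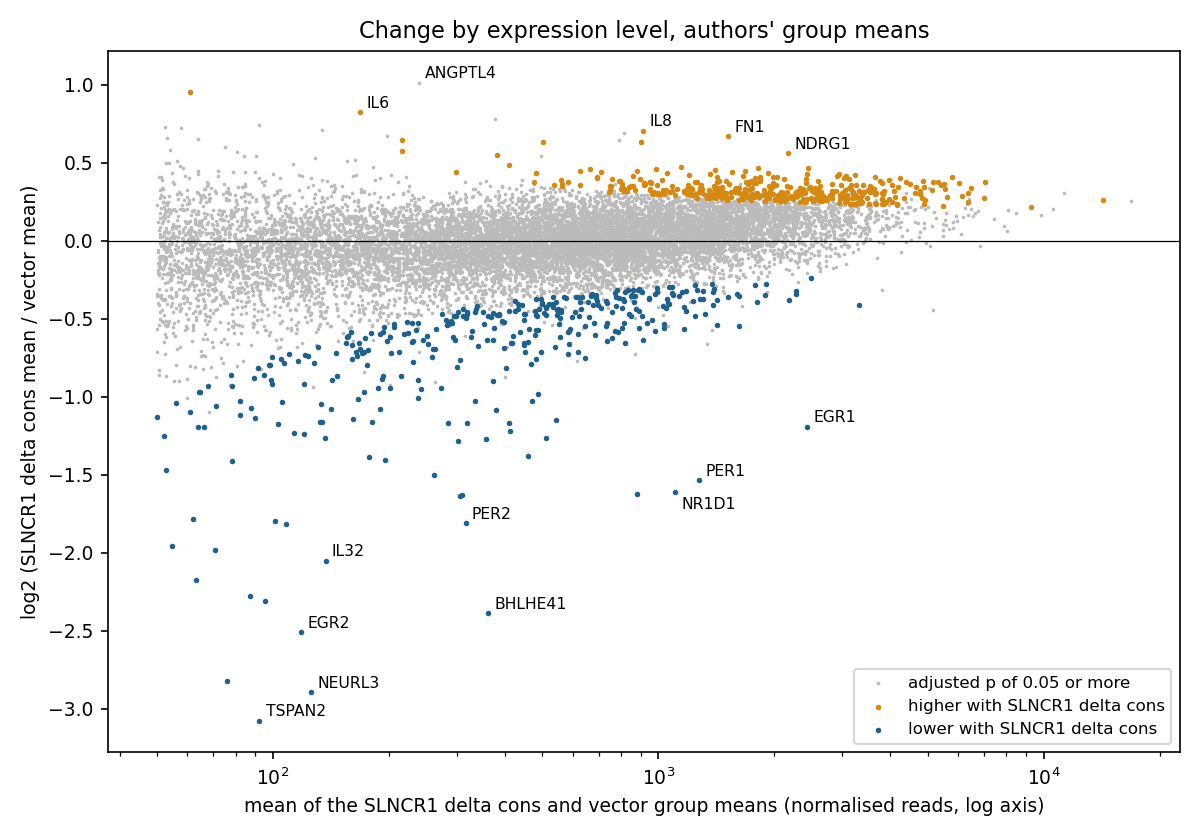
Each point is 1 of the 12454 ranked genes: the horizontal log axis gives the mean of the SLNCR1 delta cons and vector group means in normalised reads, the vertical axis the log2 of the SLNCR1 delta cons mean over the vector mean, and colour marks an adjusted p under 0.05 in the authors' deposited table. The fallen genes reach a log2 of -3.07 at low levels and lie closer to 0 at high levels, while the risen genes stay under 1 and gather at high levels.

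The transfected RNA itself was read through LINC00511, the noncoding RNA gene whose transcripts include those of SLNCR1. It had 1155 and 870.1 normalised reads in SLNCR1 delta cons cells, 865 and 886 with full-length SLNCR1 and 1052 and 1141 with SLNCR1 cons, against 628 and 621 in vector cells. Both SLNCR1 delta cons libraries were above both vector libraries, but they lay far from each other. The log2 was 0.69 with an adjusted p of 0.145 in the authors' deposited table, and limma gave 0.68 (95% interval 0.48 to 0.89) with an adjusted p of 0.000296. Without a variance trend the limma adjusted p was 0.0908. Among the constructs the SLNCR1 delta cons level did not differ past the limma threshold, at 0.20 against full length (adjusted p = 0.645) and -0.13 against SLNCR1 cons (adjusted p = 0.49). A count per gene does not show which part of SLNCR1 the reads cover, so the missing region could not be checked.

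The 20 genes at the bottom of the ranking fell by 1.53 to 3.07 on the log2 scale, and all 20 passed both in the authors' deposited table and by limma. The ranking chose them, so these counts describe the list and test nothing. TSPAN2, which encodes a tetraspanin membrane protein, was lowest, with 16.7 and 22.7 normalised reads in SLNCR1 delta cons cells against 166 and 165 in vector cells. NEURL3, for a ubiquitin ligase of the neuralized family, had 32.3 and 27.8 against 207 and 238. EGR2 had 33.4 and 37.9 against 198 and 206. For each of the 20 genes both SLNCR1 delta cons libraries lay below both vector libraries. The fold of vector over SLNCR1 delta cons means was 8.42 for TSPAN2, 7.44 for NEURL3 and 5.69 for EGR2.

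Clock genes made up 4 of these 20. BHLHE41 had 135 and 99.8 normalised reads in SLNCR1 delta cons cells against 577 and 643 in vector cells, NR1D1 553 and 546 against 1626 and 1725, PER1 661 and 657 against 1789.6 and 2018 and PER2 140.2 and 143 against 484 and 505. The remaining 16 included genes for signalling proteins: IL32, a proinflammatory cytokine, stood at 55.6 and 51.8 against 220.3 and 223, and INHBE, an activin subunit, at 22.3 and 24 against 96.4 and 112. Enzymes and channels were among them too. PLA2G4C, a cytosolic phospholipase, had 26.7 and 37.9 against 170.1 and 148, the epidermal lipoxygenase ALOXE3 41.2 and 55.6 against 159.5 and 179, the metalloproteinase MMP19 159 and 145 against 504 and 436 and the chloride channel BEST1 32.3 and 27.8 against 164 and 126. ACTN2, an actin cross-linker of muscle, had 53.4 and 37.9 against 164 and 153, and the zinc finger gene ZNF79 147 and 153 against 454 and 474. Within each pair of libraries the 2 values were close beside the gap between the groups.

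The other 5 of the 20 need care in reading. CD99P1, NF1P8 and SFTA1P are named as pseudogenes, and reads of near-identical copies may be counted there, so their values are uncertain. CD99P1 had 32.3 and 25.3 normalised reads in SLNCR1 delta cons cells against 114 and 113 in vector cells, NF1P8 33.4 and 22.7 against 91.5 and 101 and SFTA1P 21.1 and 24 against 86.6 and 87.9. The library kit does not mark the strand, so reads of the antisense gene ADIRF-AS1 and of RP11-875O11.3 cannot be told apart from those of a gene on the opposite strand. ADIRF-AS1 had 475 and 395 in SLNCR1 delta cons cells against 1333 and 1335 in vector cells, and RP11-875O11.3 had 17.8 and 20.2 against 125 and 143. Just inside the limit of 20 stood PER1 at a log2 of -1.53, and just outside it ADM2 at -1.50, so the number 20 marks no gap.

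**Figure D2:**
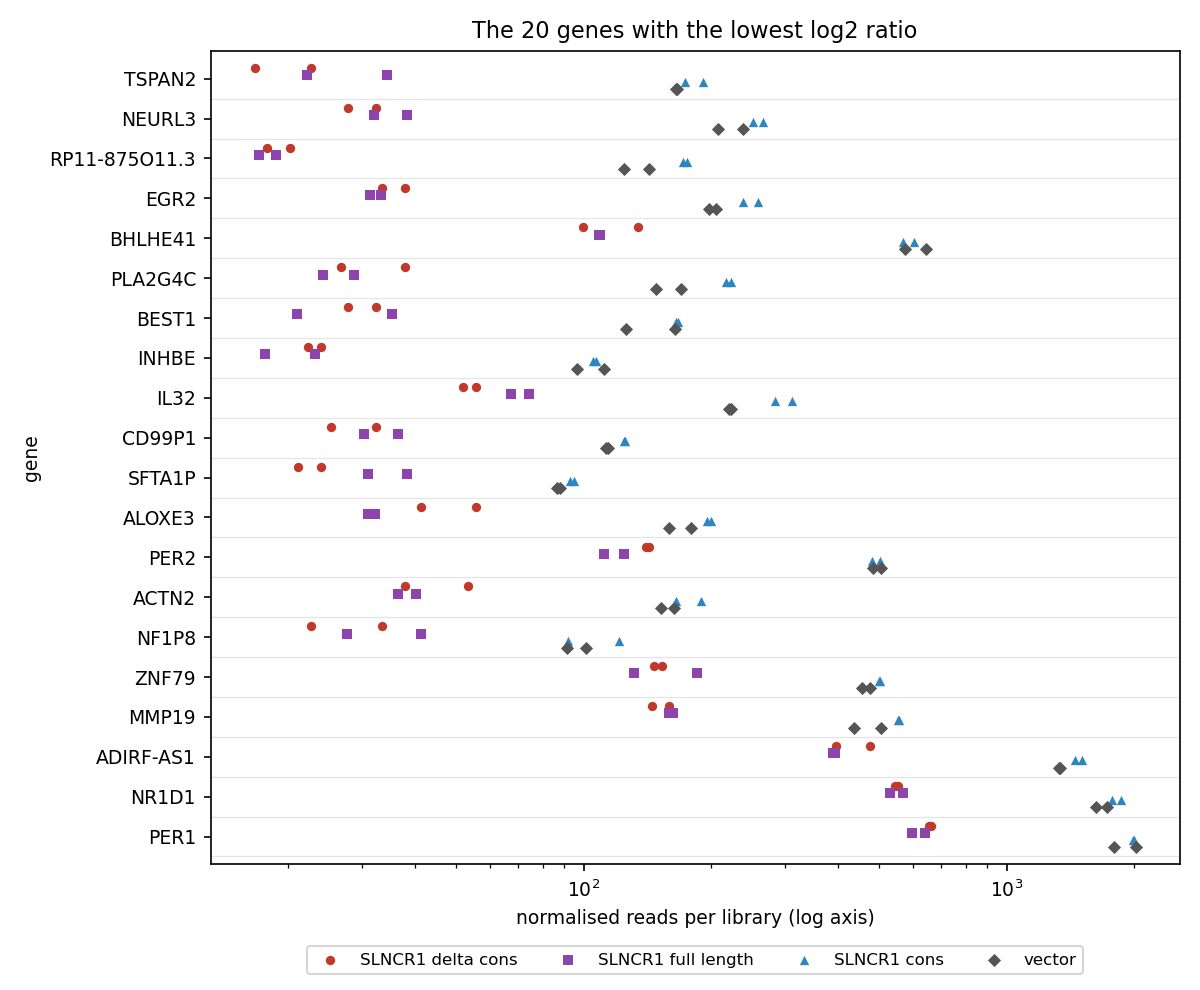
Normalised reads per library on a log axis for the 20 lowest-ranked genes, 1 point for each of the 2 libraries of SLNCR1 delta cons, full-length SLNCR1, SLNCR1 cons and vector. Points of SLNCR1 delta cons and full-length SLNCR1 lie to the left of those of SLNCR1 cons and vector for every gene.

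As a group, the clock genes showed the lowest median of the 25 lists. Of 16 clock repressors, activators and PAR bZIP factors with a mean of at least 50, 10 fell and none rose in the authors' deposited table, with a median log2 of -0.79 against 0.0066 over all ranked genes. Limma called 12 of the 16 lower, also with trimmed-mean factors and with library totals, and 10 to 12 when a library was left out. Among the repressors, PER3 had 99 and 98.5 normalised reads in SLNCR1 delta cons cells against 269.7 and 245 in vector cells, and its log2 was -1.39 in the authors' deposited table (adjusted p = 6.46e-12). CRY1, CRY2 and NR1D2, named after their values were seen to complete the count, fell less: their log2 was -0.71, -0.87 and -0.54 in the authors' deposited table. The PAR bZIP factor DBP had 280.4 and 234 in SLNCR1 delta cons cells against 648 and 686 in vector cells, a log2 of -1.38 in the authors' deposited table (adjusted p = 2.06e-26). TEF, its relative, had 228 and 196 against 513 and 505. HLF had a mean below 50 and stood outside the ranking, with 5.56 and 3.79 normalised reads in SLNCR1 delta cons cells against 54.3 and 46.2 in vector cells and a log2 of -3.43 in the authors' deposited table (adjusted p = 5.83e-08).

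The members of the clock list that did not pass in the authors' deposited table, also named after their values were seen, included its activators. CLOCK had 858 and 928 normalised reads in SLNCR1 delta cons cells against 963 and 792 in vector cells, NPAS2 2189 and 2214 against 1859 and 1995, and ARNTL 179 and 203 against 266 and 259. The CLOCK libraries of the 2 groups overlapped, those of NPAS2 were higher and those of ARNTL lower in SLNCR1 delta cons cells. Limma called ARNTL (-0.46, adjusted p = 0.0126) and NFIL3 (-0.39, adjusted p = 0.00973) lower. BHLHE40, the close relative of BHLHE41, had 1274 and 1270.4 in SLNCR1 delta cons cells against 1170.2 and 1269 in vector cells, which limma did not call (0.062, 95% interval -0.079 to 0.20). RORA, a nuclear receptor that activates ARNTL, did not pass either test, with a log2 of 0.31 in the authors' deposited table.

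The promoters of the 11 fallen clock genes were searched for the motifs through which the clock is wired, in windows from 250 bases before to 50 after each annotated start, taken from RefSeq on GRCh38.p14. All 11 genes matched, with 16 windows. The E-box CACGTG occurred in 5 windows of 4 genes (BHLHE41, NR1D2, PER1 and TEF), against 7.26% of 35116 windows of all genes. Read in the direction of the gene, the D-box TTANGTAA occurred in 2 windows, of PER2 and PER3, against 1.15% of all windows. The cyclic AMP element TGACGTCA occurred in 1, of HLF, against 1.85%. The E-box and the cyclic AMP element read the same on both strands, but the D-box was searched only in the direction of the gene. The NR1D2 stretch below also holds ttacataa, a D-box on the other strand, so the D-box counts are not complete. No stretch of letters can match 2 of these motifs at once. These matches describe the letters in the windows, and which factors bind there was not measured. The stretches around 6 of them are shown in lower case with the motif in capitals, to show the E-boxes and D-boxes of genes named above, in this order: PER1 (chr17:8152527-8152622, minus strand), BHLHE41 (chr12:26125035-26125130, minus strand), NR1D2 (chr3:23945921-23946016, plus strand), TEF (chr22:41367215-41367310, plus strand), PER2 (chr2:238288561-238288658, minus strand) and PER3 (chr1:7784069-7784166, plus strand). The deposited tables use hg19, so these coordinates are those of the RefSeq table.
PER1 E-box: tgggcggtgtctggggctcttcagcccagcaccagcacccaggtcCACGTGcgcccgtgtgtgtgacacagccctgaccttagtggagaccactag
BHLHE41 E-box: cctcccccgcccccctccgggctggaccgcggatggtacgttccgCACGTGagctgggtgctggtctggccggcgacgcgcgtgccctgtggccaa
NR1D2 E-box: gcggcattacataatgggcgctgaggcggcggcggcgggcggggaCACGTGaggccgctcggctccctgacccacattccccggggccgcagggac
TEF E-box: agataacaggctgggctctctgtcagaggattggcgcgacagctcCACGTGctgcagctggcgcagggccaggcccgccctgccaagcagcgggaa
PER2 D-box: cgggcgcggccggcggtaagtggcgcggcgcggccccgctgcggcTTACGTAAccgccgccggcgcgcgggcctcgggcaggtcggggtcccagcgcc
PER3 D-box: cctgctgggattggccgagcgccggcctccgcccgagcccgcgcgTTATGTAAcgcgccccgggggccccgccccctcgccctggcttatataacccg

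Some immediate early genes fell while most did not pass. Of 27 with a mean of at least 50, 7 fell and none rose in the authors' deposited table, and the list's median log2 was -0.012. The 2 EGR genes led: EGR1 had 1453 and 1539 normalised reads in SLNCR1 delta cons cells against 3228 and 3586 in vector cells, a log2 of -1.19 in the authors' deposited table (adjusted p = 2.09e-23). FOSB, a subunit of the AP-1 factor, had 169 and 167 against 313 and 309. KLF4, a Kruppel-like transcription factor, had 403 and 432 in SLNCR1 delta cons cells against 626 and 705 in vector cells, and its relative KLF10 had 1015 and 1078 against 1454 and 1463. In FOSB, KLF4 and KLF10 the groups did not overlap. The antiproliferative gene BTG2 and the stress-induced factor gene ATF3 also fell, by 0.44 and 0.35 on the log2 scale in the authors' deposited table. Limma called 8 members lower and 3 higher, but none or 1 higher with the other 2 scalings and none higher without either SLNCR1 delta cons library or vector library a.

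The output genes of ERK signalling, the pathway that an activated BRAF drives in A375 cells, did not share these falls. Of 19, 3 rose and none fell in the authors' deposited table, with a median log2 of 0.13. The ERK phosphatase DUSP4 had 5150.4 and 5387 normalised reads in SLNCR1 delta cons cells against 3974 and 4315 in vector cells. PHLDA1 had 4434 and 4699 against 3446 and 3654 and the cyclin gene CCND1 3845 and 4093 against 2993 and 3377. Before scaling, DUSP4 had 4629 and 4266 reads against 4908 and 4857. PHLDA1 had 3985 and 3721 against 4256 and 4113 and CCND1 3456 and 3241 against 3696 and 3801. The part of depth in these rises was not tested. All 3 are abundant, and limma called no member of the list without SLNCR1 delta cons library b.

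Inflammatory genes moved in both directions. In the list of NF-kB and cytokine genes, of 27 members with a mean of at least 50, 5 rose and 7 fell in the authors' deposited table, and limma called the same numbers with each scaling. Without SLNCR1 delta cons library b it called 3 higher and 5 lower. The 5 that rose encode secreted cytokines and an enzyme. IL6 had 198 and 235 normalised reads in SLNCR1 delta cons cells against 126 and 118 in vector cells, a log2 of 0.83 in the authors' deposited table (adjusted p = 0.000643). The neutrophil chemokine gene IL8 had 1079 and 1199.7 against 692 and 701, and IL24, of the IL10 family, had 1010.3 and 1199.7 against 716 and 705. In all 3, both SLNCR1 delta cons libraries were above both vector libraries. IL11 and the mitochondrial superoxide dismutase gene SOD2, named after their values were seen, rose by 0.38 and 0.36 in the authors' deposited table.

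The 7 fallen members of that list were mostly parts of NF-kB signalling itself. NFKBIE, an inhibitor of NF-kB, had 350.5 and 258 normalised reads in SLNCR1 delta cons cells against 699 and 756 in vector cells, a log2 of -1.26 in the authors' deposited table (adjusted p = 3.42e-12). The signalling adaptor TRAF1 had 164 and 189 against 403 and 389, and BIRC3, an inhibitor of apoptosis, had 293 and 332 against 666 and 603. REL, a subunit of NF-kB, had 145 and 181 in SLNCR1 delta cons cells against 286 and 246 in vector cells, and the surface protein gene CD83 had 138 and 170.5 against 265 and 242. RELB and NFKB2, subunits of NF-kB named after their values were seen, had a log2 of -0.57 and -0.34 in the authors' deposited table.

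Of 48 interferon-stimulated genes, 37 had a log2 below 0, with a spread between the SLNCR1 delta cons libraries. Of the 48, 6 fell and 2 rose in the authors' deposited table, with a median log2 of -0.28. The antiviral enzyme gene RSAD2 had 234 and 143 normalised reads in SLNCR1 delta cons cells against 338 and 386 in vector cells, and IFI27 159 and 87.1 against 257 and 261. XAF1, an apoptosis regulator, had 165 and 114 against 266 and 267, and the ubiquitin-like ligase gene HERC5 166 and 124 against 215 and 219. For these 4 genes SLNCR1 delta cons library b was the lowest of the 4 libraries and library a lay between it and vector. USP18 and HERC6 completed the 6, at a log2 of -0.53 and -0.40 in the authors' deposited table. The 2 that rose were abundant, with 1525 and 1566 against 1228 and 1308 normalised reads for B2M, the light chain of class I antigen presentation, and 3869 and 3990.4 against 2981 and 3269 for LGALS3BP. Limma called 23 members lower and 3 higher, but 3 lower without SLNCR1 delta cons library b, 4 lower without vector library a and 11 lower without vector library b. Of 20 genes for RNA sensors and interferon signalling, DHX58, IRF1 and TICAM1 fell and none rose in the authors' deposited table, with a median log2 of -0.13. DHX58, a cytosolic RNA sensor gene, had 409 and 292 in SLNCR1 delta cons cells against 547 and 555 in vector cells, and the transcription factor gene IRF1 507 and 449.6 against 701 and 713.

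Of 24 p53 targets, 5 fell and none rose in the authors' deposited table, with a median log2 of -0.17. They were the repair genes XPC (987 and 1024 normalised reads in SLNCR1 delta cons cells against 1326 and 1417 in vector cells) and DDB2 (794 and 798 against 959 and 1014), the stress sensor gene SESN1 (218 and 251 against 326 and 338), the nuclease gene AEN and BTG2. Limma called 11 lower and 1 higher, and 3 to 5 lower when a library of either group was left out. Of 30 genes of the ATF4 integrated stress response, 5 fell and 3 rose in the authors' deposited table. CTH, an enzyme of cysteine synthesis, had 150.2 and 168 in SLNCR1 delta cons cells against 331 and 306 in vector cells, CHAC1, which degrades glutathione, 146 and 114 against 215 and 233, and DDIT3, a proapoptotic transcription factor, 350.5 and 356 against 522 and 536. The amino acid transporter gene SLC7A5 had 6558 and 7169 against 4962 and 5613, and the lipoprotein receptor gene VLDLR 251 and 279 against 147 and 191. ASNS, of asparagine synthesis, and ATF3 also fell, by 0.30 and 0.35, and DDIT4, an inhibitor of mTOR signalling, rose by 0.33 in the authors' deposited table. Before scaling, SLC7A5 had 5894 and 5677 reads against 6127 and 6318 and DDIT4 874 and 775 against 887 and 939. VLDLR had 226 and 221 against 181 and 215. The part of depth in these rises was not tested.

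The replication-dependent histone genes had the second lowest median of the lists, -0.74. Of 12 with a mean of at least 50, 7 fell and none rose in the authors' deposited table, and limma called 9 lower with each of the 3 scalings. It called 6 without either SLNCR1 delta cons library, 5 without vector library a and 6 without vector library b. HIST1H2BD had 82.3 and 83.3 normalised reads in SLNCR1 delta cons cells against 181 and 187 in vector cells, HIST2H2BE 101 and 121 against 247 and 201 and HIST1H1D 31.2 and 25.3 against 71.3 and 84.4. HIST1H3D, with a mean below 50, also fell. Transcripts of these genes mostly end without a poly(A) tail, so poly(A)-selected libraries see few of them, and near-identical copies can share reads. The S phase genes did not follow: of 24, none passed in the authors' deposited table (5 higher and none lower at p under 0.05 before adjustment), with a median log2 of 0.12, and limma called 3 higher. It called none with trimmed-mean factors, without either SLNCR1 delta cons library or without vector library a, and 1 without SLNCR1 cons library a. Of 25 G2 and M phase genes only TOP2A, a topoisomerase gene, rose in the authors' deposited table, with 4032 and 4258 normalised reads in SLNCR1 delta cons cells against 3486 and 3549.9 in vector cells.

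Zinc finger genes with a ZNF symbol, a group picked after the values were seen, were counted because ZNF79 stands among the 20. Of 384 with a mean of at least 50, 47 fell (12.2%, against 2.85% of all ranked genes) and none rose in the authors' deposited table, with a median log2 of -0.19. By limma none of them was called against full-length SLNCR1, but neither was any other of the 16073 genes tested. PVT1, a host gene of noncoding RNAs, was the only member of a list of 20 nuclear and host-gene noncoding RNAs that fell in the authors' deposited table, with 221 and 266 normalised reads in SLNCR1 delta cons cells against 517 and 516 in vector cells. MALAT1, a nuclear noncoding RNA, was the only one that rose there, with 6169.5 and 6281 against 4923 and 5278.

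The 20 genes at the top of the ranking were higher by 0.59 to 1.01 on the log2 scale, and 7 of them passed in the authors' deposited table while 17 passed by limma. As before, the ranking chose them. The 7 were FAM115C, IL6, IL8, FN1, VLDLR, IL24 and STC1. STC1, a secreted glycoprotein hormone, had 649 and 583 normalised reads in SLNCR1 delta cons cells against 371 and 423 in vector cells, and FAM115C had 84.6 and 77 against 41.3 and 41.8. ANGPTL4, a secreted inhibitor of lipoprotein lipase, was first, with 358 and 287 in SLNCR1 delta cons cells against 94.7 and 224 in vector cells. CA9, the carbonic anhydrase induced by low oxygen, had 528 and 433 against 198 and 362, and the growth factor binding protein IGFBP3 1050.3 and 898 against 482 and 762. For these last 3 genes the vector libraries lay far apart, with library b the higher, and the adjusted p in the authors' deposited table was 0.366, 0.445 and 0.39.

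Limma, which pools the spread over all groups, gave 1.13 for ANGPTL4 (adjusted p = 0.00965), 0.84 for CA9 (adjusted p = 0.0101) and 0.68 for IGFBP3 (adjusted p = 0.00755). The carboxypeptidase gene CPM had 117 and 115 normalised reads in SLNCR1 delta cons cells against 67.2 and 71.1 in vector cells, the neuritin gene NRN1 269 and 219.7 against 117 and 189, and MIR210HG, host of a hypoxia-induced microRNA, 195 and 141 against 89.1 and 115. RN7SL1 and RN7SL2 encode the RNA of the signal recognition particle, which has no poly(A) tail, and their reads can be shared between copies. RN7SL1 had 85.7 and 97.2 in SLNCR1 delta cons cells against 51.8 and 68.4 in vector cells, and RN7SL2 had 70.1 and 74.5 against 41.3 and 46.2. SCARA5, a ferritin receptor, TRPM8, a cold-sensing channel, SLC29A4, a monoamine transporter, and the ligand WNT7B complete the 20 with LINC00511, and these 4 had at most 97.9 normalised reads in any of the 4 libraries. Limma called SCARA5 (adjusted p = 0.0489) and not TRPM8 (adjusted p = 0.0502), SLC29A4 (adjusted p = 0.174) or WNT7B (adjusted p = 0.0765).

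**Figure D3:**
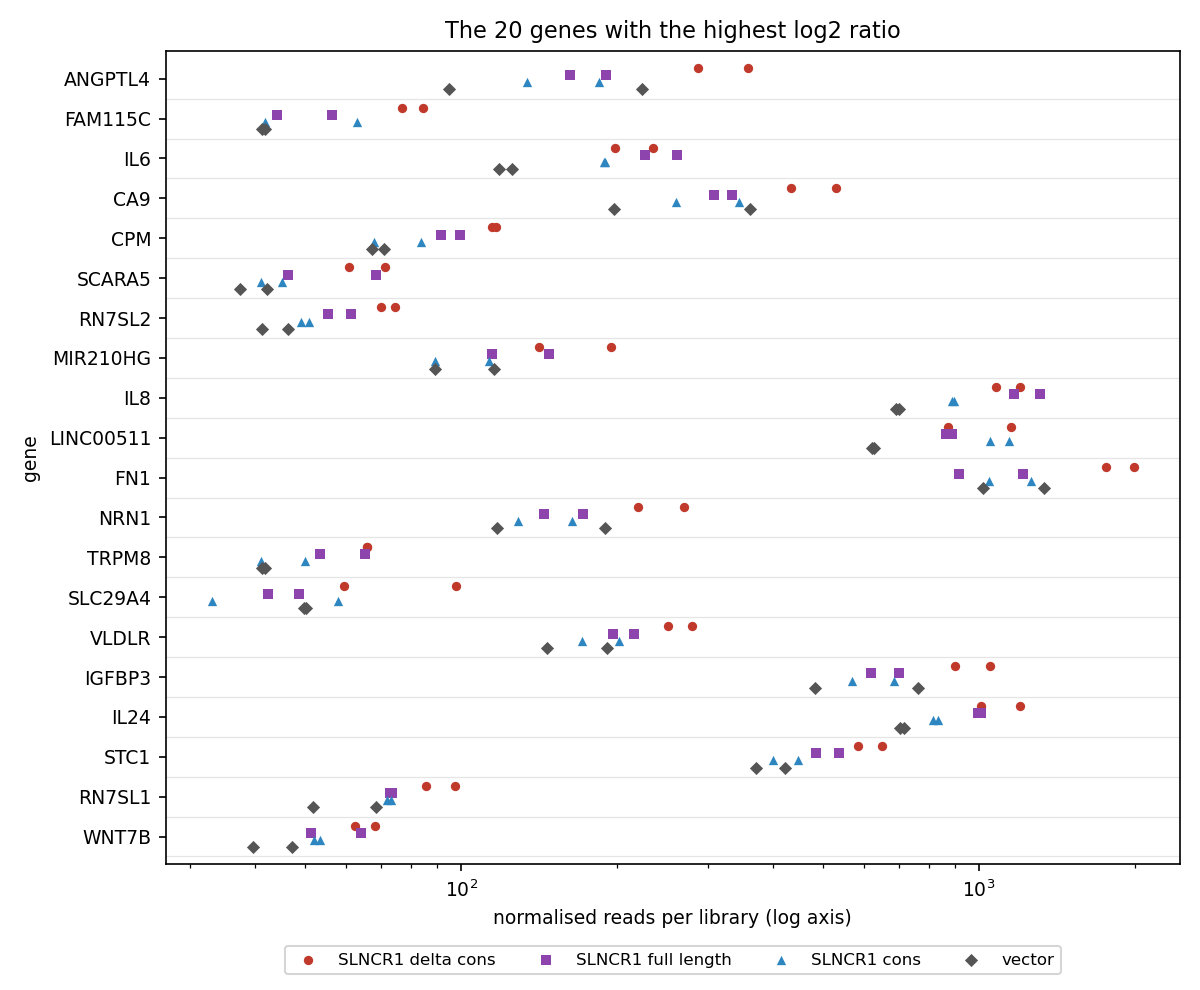
Normalised reads per library on a log axis for the 20 highest-ranked genes, 1 point for each of the 2 libraries of SLNCR1 delta cons, full-length SLNCR1, SLNCR1 cons and vector. SLNCR1 delta cons lies to the right of vector for all 20, while the 2 vector points of ANGPTL4, CA9 and IGFBP3 are widely spaced.

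Genes of the hypoxia response and of glycolysis rose more often than any list but the ribosomal and mitochondrial ones. Of 30, 17 rose and none fell in the authors' deposited table, with a median log2 of 0.32. NDRG1, a stress-induced gene, had 2664 and 2562 normalised reads in SLNCR1 delta cons cells against 1543 and 1993 in vector cells, and its log2 was 0.56 in the authors' deposited table (adjusted p = 0.0152). The glycolytic regulator PFKFB4 had 2009 and 1898 against 1352 and 1506, the mitophagy receptor BNIP3 1006 and 1038 against 688 and 806, and the phosphoglycerate kinase gene PGK1 3400.2 and 3548 against 2495 and 2742. In these genes both SLNCR1 delta cons libraries exceeded both vector libraries. LDHA, ALDOC, TPI1 and ENO1, all enzymes of glycolysis or lactate formation, rose by 0.39 to 0.43 in the authors' deposited table. Before scaling, LDHA had 2404 and 2344 reads in SLNCR1 delta cons cells against 2460 and 2458 in vector cells. ENO1 had 3725 and 3531 against 3879 and 3858, TPI1 1842 and 1726 against 1861 and 1885 and ALDOC 907 and 773 against 881 and 866. The part of depth in these rises was not tested. Limma called 20 of the 30 higher, and 19 and 20 with the other scalings, but 5 without SLNCR1 delta cons library b and 4 without vector library a. Against SLNCR1 cons, limma called 15 of the 30 higher in SLNCR1 delta cons cells, beside 178 of all 16073 genes tested (1.11%). The SLNCR1 cons libraries were deeper than those of SLNCR1 delta cons, and the part of depth in this count was not tested.

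Of 30 matrix and adhesion genes, 28 had a log2 above 0. Of the 30, 13 rose and none fell in the authors' deposited table, with a median log2 of 0.25. FN1, which encodes fibronectin, had 1990.5 and 1763 normalised reads in SLNCR1 delta cons cells, 1216 and 917 with full-length SLNCR1 and 1260.4 and 1044 with SLNCR1 cons, against 1017 and 1336 in vector cells. Both SLNCR1 delta cons libraries were above the other 6. The log2 of FN1 was 0.67 in the authors' deposited table (adjusted p = 0.0178). SPARC, a collagen-binding matrix protein, had 4071 and 4338 in SLNCR1 delta cons cells against 3025 and 3303 in vector cells. Tenascin gene TNC had 7209 and 7366 against 5569.7 and 5920.0 and the hyaluronan receptor gene CD44 5156 and 5525 against 4206 and 4326. Before scaling, SPARC had 3659 and 3435 reads against 3736 and 3718 and TNC 6479 and 5833 against 6878 and 6664. CD44 had 4634 and 4375 against 5194 and 4870, and FN1 1789 and 1396 against 1256 and 1504. The part of depth in these rises was not tested. The integrin genes ITGA2, ITGA3 and ITGB1 and the laminin gene LAMB1 rose by 0.29 to 0.31 in the authors' deposited table. Limma called 16 of the 30 higher, 9 with trimmed-mean factors, 12 with library totals, 9 without SLNCR1 cons library a, 4 without SLNCR1 delta cons library a, and 1 when either SLNCR1 delta cons library b or vector library a was left out.

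Among the marker genes of fibroblasts, COL1A1 had 248 and 261 normalised reads in SLNCR1 delta cons cells, 276 in SLNCR1 cons library a and 139 in its library b, against 176 and 207 in vector cells. Its log2 of 0.41 had an adjusted p of 0.184 in the authors' deposited table. COL3A1 rose there by 3.66 on the log2 scale in the authors' deposited table (adjusted p = 2.61e-09), at a mean below 50, and the part of the reads shared with SLNCR1 cons library a in this rise was not tested.

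Metalloproteinases are of interest because MMP9 has been tied to SLNCR1. MMP9 was low, with 5.56 and 8.84 normalised reads in SLNCR1 delta cons cells, 23.1 and 18.8 with full-length SLNCR1 and 20.5 and 14 with SLNCR1 cons, against 8.1 and 9.77 in vector cells. The SLNCR1 delta cons libraries rested on 5 and 7 reads, and their range overlapped that of vector. The log2 was -0.31 in the authors' deposited table (adjusted p = 1). The SLNCR1 delta cons libraries lay below both libraries of full-length SLNCR1 and of SLNCR1 cons, but limma called neither difference, at -1.44 (95% interval -2.25 to -0.63, adjusted p = 0.481) and -1.16 (95% interval -1.97 to -0.35, adjusted p = 0.0837). Of the 16 metalloproteinases and inhibitors with a mean of at least 50, MMP2, MMP14 and TIMP3 rose and MMP19 fell in the authors' deposited table. The gelatinase gene MMP2 had 3572 and 3531 in SLNCR1 delta cons cells against 2679.6 and 2948 in vector cells, the membrane protease gene MMP14 2199.7 and 2209 against 1750.0 and 1913 and the inhibitor gene TIMP3 4997 and 5225 against 3830.3 and 4090.0. Before scaling, MMP2 had 3210 and 2796 reads in SLNCR1 delta cons cells against 3309 and 3319 in vector cells. MMP14 had 1977 and 1749 against 2161 and 2153 and TIMP3 4491 and 4138 against 4730 and 4604. MMP19 had 143 and 115 against 623 and 491. The part of depth in these rises was not tested.

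POU4F1, the other gene tied to SLNCR1, had 115 and 115 normalised reads in SLNCR1 delta cons cells against 85.8 and 97.7 in vector cells. Both SLNCR1 delta cons libraries were above both vector libraries, but neither test passed, with a log2 of 0.32 and an adjusted p of 1 in the authors' deposited table and a limma 95% interval of -0.011 to 0.66. SRA1, a gene for a steroid receptor RNA activator, had 695 and 715 against 809 and 820.0, with a log2 of -0.21 and an adjusted p of 0.454 in the authors' deposited table. MITF was lower in both SLNCR1 delta cons libraries, but its log2 of -0.28 had an adjusted p of 0.14 in the authors' deposited table. Of the 13 pigment cell lineage genes with a mean of at least 50, SOX10 rose and PPARGC1A, a mitochondrial coactivator gene controlled by MITF, fell in the authors' deposited table. PPARGC1A had 57.9 and 55.6 in SLNCR1 delta cons cells against 136 and 112 in vector cells. Before scaling, SOX10 had 3304 and 2933 reads against 3630 and 3654 and PPARGC1A 52 and 44 against 168 and 126. Among 24 genes of dedifferentiation and invasion, VIM and DKK1 rose, ZEB2 and BIRC3 fell and 20 did not pass in the authors' deposited table, with a median log2 of 0.00077. Among 23 genes of the TGF-beta and BMP response, PMEPA1, TGFBI, ID1 and INHBA rose by 0.29 to 0.41 and KLF10 fell in the authors' deposited table. Limma called 4 of the 23 higher and 1 lower, 3 and 3 with trimmed-mean factors and 4 and 4 with library totals. Before scaling, PMEPA1 had 1482 and 1277 reads against 1471 and 1420 and TGFBI 3032 and 2669 against 3086 and 3094. ID1 had 1035 and 916 against 1059 and 1107 and INHBA 2461 and 2367 against 2881 and 2649. The part of depth in these rises and in those of SOX10, VIM and DKK1 was not tested.

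Abundant housekeeping groups were slightly higher, and these rises need the depth values beside them. Of 45 cytosolic ribosomal protein genes, 27 rose and none fell in the authors' deposited table, with a median log2 of 0.30. RPL13A had 1949 and 2133 normalised reads in SLNCR1 delta cons cells against 1480.3 and 1595 in vector cells, and RPL4 2316 and 2548 against 1782 and 1904. Of the 13 mitochondrially encoded genes, 12 rose in the authors' deposited table, with a median log2 of 0.44. MT-CO1, a subunit of cytochrome oxidase, had 2007 and 2244 in SLNCR1 delta cons cells, 1829 and 1987 with full-length SLNCR1 and 1611 and 1804 with SLNCR1 cons, against 1463 and 1611 in vector cells. In each group the library with fewer reads had the higher value, and the groups followed the order of their depth. Before scaling, MT-CO1 had 1804 and 1777 reads in SLNCR1 delta cons cells against 1807 and 1813 in vector cells. It had 1817 and 1800 with full-length SLNCR1 and 1808 and 1804 with SLNCR1 cons. MT-ND4 ran from 2406 to 2438 reads, while reads in genes ran from 8222868 to 12015394 over the same libraries. The most abundant of the 5 level classes of ranked genes had a median log2 of 0.11 in the same comparison. Limma called 38 ribosomal and 13 mitochondrial genes higher, and none of either without SLNCR1 delta cons library b. Without vector library a it called none of the ribosomal and 3 of the mitochondrial genes. Without vector library a it called no ribosomal and 3 mitochondrial genes. The part of depth in these values was not tested.

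**Figure D4:**
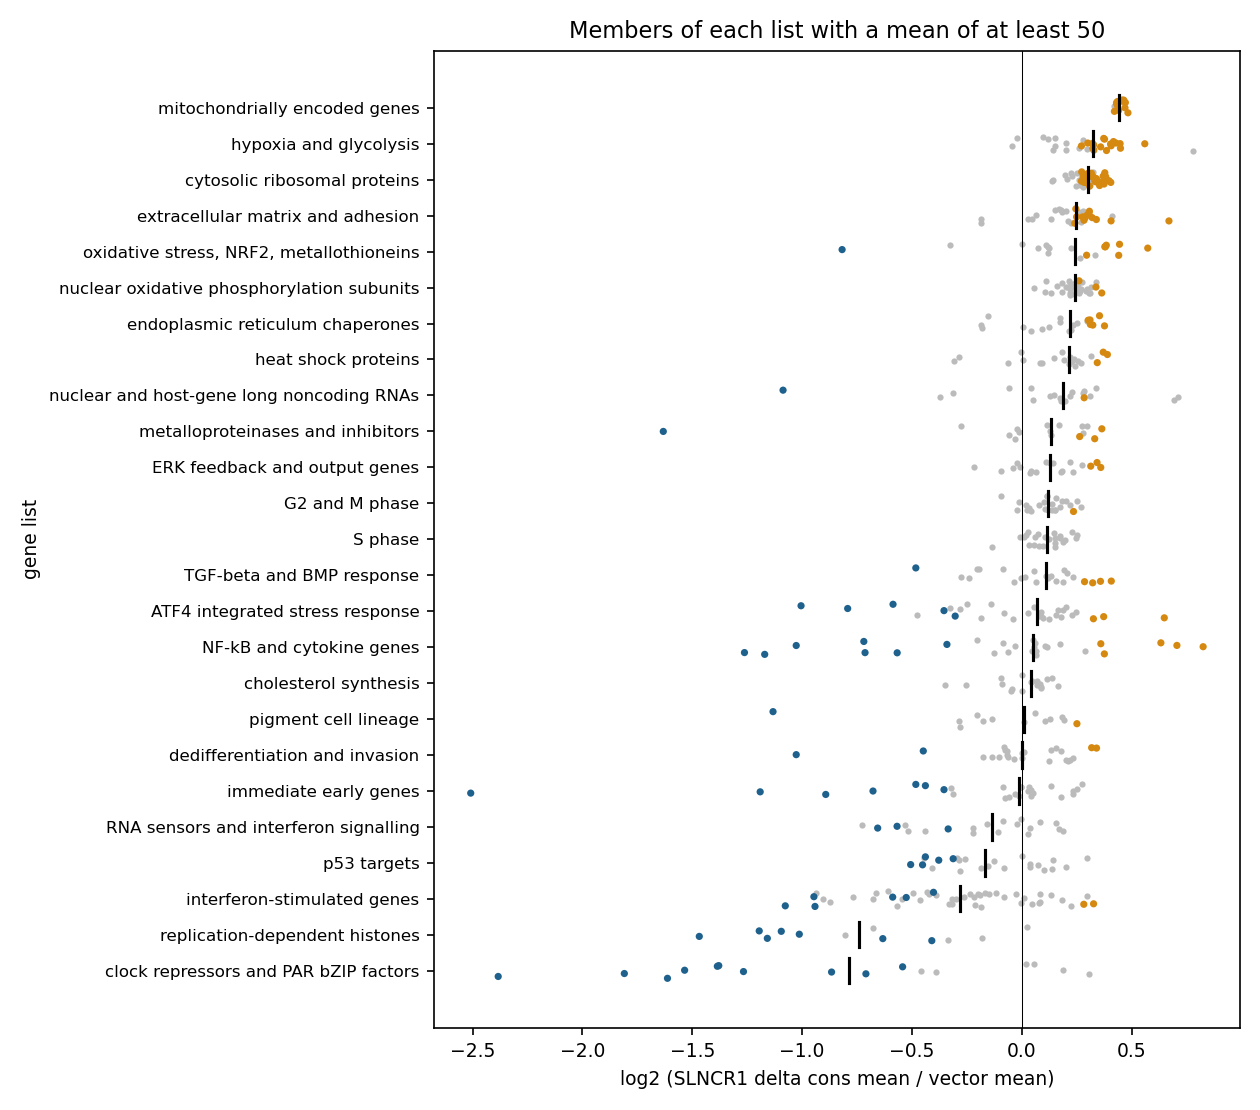
Each point is a list member with a mean of at least 50, placed by the log2 of the SLNCR1 delta cons mean over the vector mean, and coloured where it passed the authors' adjusted p (orange higher, blue lower). The black bar is the list's median: clock genes (-0.79) and histones (-0.74) are lowest, mitochondrially encoded genes (0.44) highest.

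Smaller groups of the same kind were also higher. Of 20 chaperones of the endoplasmic reticulum, 6 rose and none fell in the authors' deposited table, with a median log2 of 0.22. They were CANX, HSP90B1, CALR, HSPA5, PDIA3 and PDIA6. Calnexin gene CANX had 4805 and 5220.4 normalised reads in SLNCR1 delta cons cells against 3704 and 3999 in vector cells. The heat shock genes HSP90AB1, HSPA8 and HSP90AA1 rose, 3 of 22, by 0.34 to 0.39 in the authors' deposited table. Of 18 genes of the oxidative stress response, 7 rose and 1 fell in the authors' deposited table. The aldo-keto reductase AKR1C1 had 251 and 270.2 in SLNCR1 delta cons cells against 177 and 172 in vector cells, the ferritin light chain FTL 1703 and 1899 against 1260.0 and 1387, and OSGIN1, the 1 that fell, 297 and 289 against 509 and 521. Before scaling, AKR1C1 had 226 and 214 reads against 219 and 194 and FTL 1531 and 1504 against 1556 and 1561. OSGIN1 had 267 and 229 against 629 and 587. The part of depth in the rises of this list was not tested. Of 32 nuclear subunits of oxidative phosphorylation, ATP5A1, ATP5B and UQCRC1 rose in the authors' deposited table, with a median log2 of 0.24. Without SLNCR1 delta cons library b, limma called none of the chaperones, the heat shock genes or these subunits higher, against 9, 10 and 14 with all libraries, and without vector library a it called 1 of the chaperones and none of the others. No cholesterol synthesis gene of 18 passed in the authors' deposited table (1 higher and 1 lower at p under 0.05 before adjustment), and limma called 1 lower, MVK, at 491 and 462 against 557 and 655 normalised reads, a call lost without any 1 library of either group.

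How SLNCR1 delta cons compares with its parent was tested directly by limma. No gene of 16073 was called between SLNCR1 delta cons and full-length SLNCR1 in either direction (0.0%), while 870 were higher and 415 lower at p under 0.05 before adjustment. The gene nearest to the threshold was FN1, at 0.83 with an adjusted p of 0.0703. The 2 libraries of full-length SLNCR1 differed more than those of SLNCR1 delta cons did, with a chi-square per degree of freedom of 1.51 within SLNCR1 delta cons and 4.24 within full length, and without SLNCR1 library a 1088 genes were called higher and 136 lower. A lack of calls does not show that the constructs act alike. For the 20 lowest-ranked genes the difference from full length ran from -0.59 to 0.59, with a median of 0.083, and their 95% intervals reached from -1.02 to 0.95. For EGR1 the difference was 0.013 with an interval of -0.14 to 0.16, for NR1D1 0.0025 with -0.15 to 0.15 and for PER1 0.092 with -0.061 to 0.24.

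TSPAN2 had 16.7 and 22.7 normalised reads with SLNCR1 delta cons against 22.1 and 34.2 with full-length SLNCR1, NEURL3 32.3 and 27.8 against 38.2 and 32, and EGR1 1453 and 1539 against 1465 and 1499. The 2 ranges overlapped for each. Among the 20 lowest-ranked genes, both SLNCR1 delta cons libraries were below both libraries of full length for 2 genes, IL32 and SFTA1P, and above both for 5. At p under 0.05 before adjustment, 2 of the 20 were higher and 3 lower than with full length. Among the 20 highest-ranked genes both SLNCR1 delta cons libraries were above both of full length for 14 and below for none, with differences from -0.17 to 0.86 and a median of 0.31. At p under 0.05 before adjustment, 9 of these 20 were higher and none lower. Both sets of 20 were chosen by a ranking on the SLNCR1 delta cons values, so these counts describe the sets and test nothing. How many of all ranked genes lay apart from full length in the same way was not counted. ANGPTL4 had 358 and 287 with SLNCR1 delta cons and 190.2 and 162 with full length, a limma difference of 0.86 (95% interval 0.33 to 1.40, adjusted p = 0.481). In the matrix list, 10 of 30 genes were higher than with full length at p under 0.05 before adjustment, beside 870 of all 16073 genes tested. None passed the adjustment.

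SLNCR1 delta cons and SLNCR1 cons are, by their names, complementary pieces of the RNA, and they differed at many genes. Limma called 178 genes higher (1.11%) and 930 lower (5.79%) in SLNCR1 delta cons than in SLNCR1 cons cells. All 20 of the lowest-ranked genes were among those called lower, with differences of -3.16 to -1.60. TSPAN2 had 16.7 and 22.7 normalised reads with SLNCR1 delta cons against 192 and 174 with SLNCR1 cons, PER1 661 and 657 against 1986 and 1999.8, and EGR1 1453 and 1539 against 3779 and 4058. The 2 constructs did not overlap for any of the 20 genes, and how many of all ranked genes lay apart in this way was not counted. These genes were ranked on the SLNCR1 delta cons libraries, which also enter the differences from the other constructs. Of the 16 clock genes, 12 were lower than with SLNCR1 cons by limma and none higher, and 33 of the 48 interferon-stimulated genes were lower. RSAD2 had 234 and 143 with SLNCR1 delta cons and 556 and 622 with SLNCR1 cons, a limma difference of -1.68 (adjusted p = 1.76e-06). Of the 20 highest-ranked genes 11 were called higher than with SLNCR1 cons, among them FN1 (0.71, adjusted p = 0.00163), STC1 (0.54, adjusted p = 0.00131) and IL24 (0.42, adjusted p = 0.00245). IL6, in contrast, had 198 and 235 with SLNCR1 delta cons and 189.7 and 189 with SLNCR1 cons and was not called (adjusted p = 0.411). The number of calls fell to between 427 and 581 when 1 of the 4 libraries was left out.

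The 5 largest positive differences from SLNCR1 cons, of genes with a mean of at least 50 that limma called, were in genes of low level. ANGPTL4 led, and after it came RP11-54O7.3 with 86.8 and 65.7 normalised reads in SLNCR1 delta cons cells against 54.3 and 33 in SLNCR1 cons cells, and the scaffold gene SHANK1 with 108 and 99.8 against 56.1 and 66. The membrane protein gene IFITM10 followed with 76.8 and 70.7 against 55.2 and 34, and then RP11-568K15.1 with 115 and 82.1 against 63.2 and 52. None of these 4 passed against vector in the authors' deposited table.

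**Figure D5:**
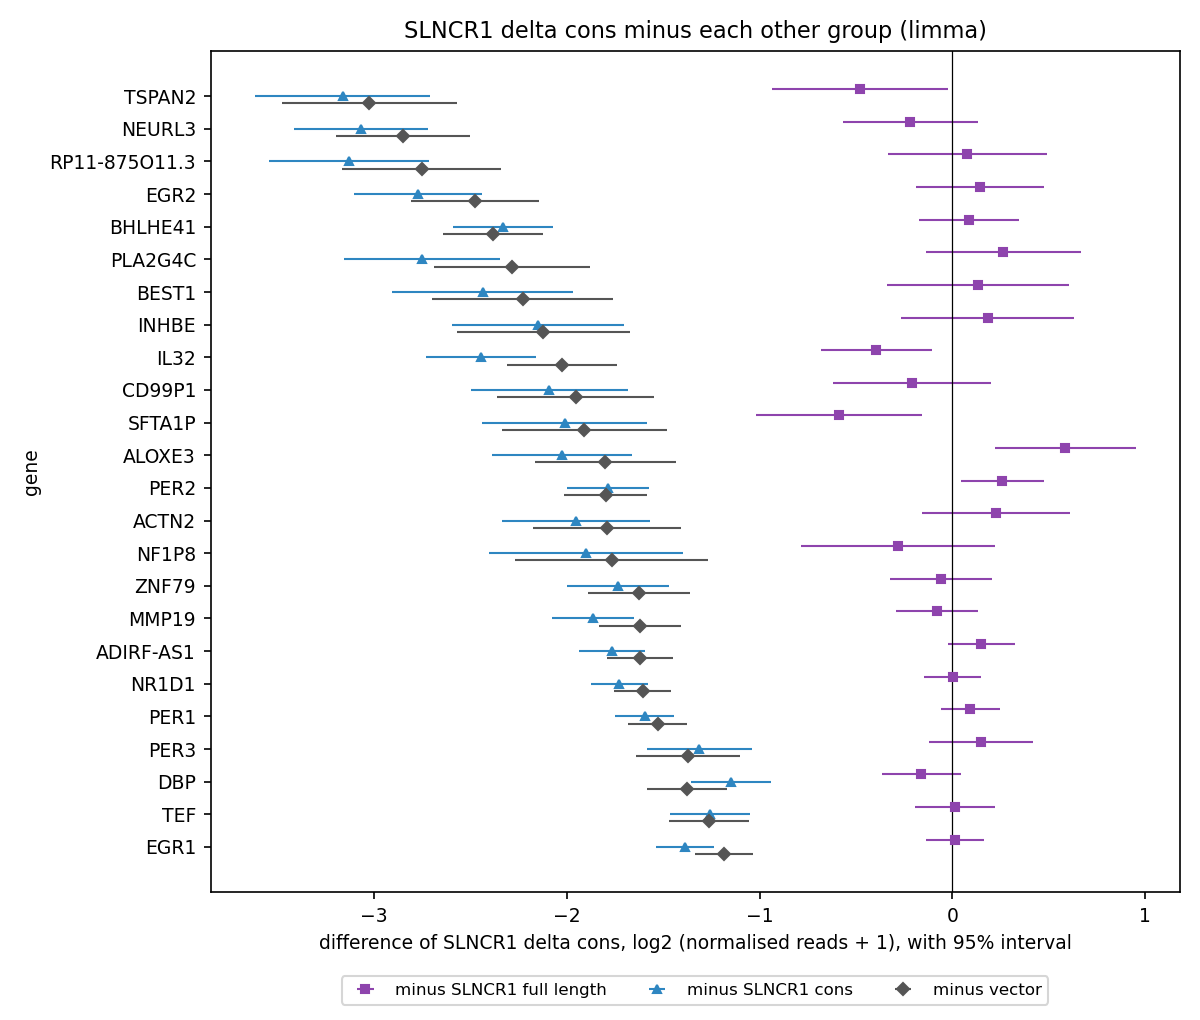
Limma differences of SLNCR1 delta cons from full-length SLNCR1, SLNCR1 cons and vector, on the log2 of normalised reads plus 1, with 95% intervals, for the 20 lowest-ranked genes and for PER3, DBP, TEF and EGR1. Differences from full length lie between -0.59 and 0.59, while the estimates against SLNCR1 cons and vector lie below -1 for every gene.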

How the data were processed

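Per the labels' protocols, poly(A)-selected RNA was made into libraries with an NEBNext Ultra kit, which leaves the strand unmarked. Per the submitters' processing notes, the authors used STAR, featureCounts and DESeq with hg19. For these, versions, settings and annotation were not given in the sources used here. In the 3 deposited tables the signal is, per the file headers, a group's mean of reads per gene after the authors' division by DESeq size factors. The deposited fold change is the ratio of construct to vector mean. Its log2 was computed here from the group means. P-values, raw and adjusted, are as the authors deposited them. Of the entries, 28 read as dates, and 4 identifiers recur.

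Each group mean combines whole reads of its 2 libraries with 2 size factors, and the reads of each library could be recovered from the values. The solution was unique for 100% of genes with reads in 3 groups and for 99.981% in SLNCR1 cons (6 genes had several). These reads were scaled over all 8 libraries by median-of-ratios factors and tested with limma 3.58.1 (R 4.3.3) on log2(normalised count + 1) with a variance trend, over the 16073 genes whose mean reached 10, with Benjamini-Hochberg adjustment (4 residual degrees of freedom, prior 13.6). No count-based model was run. Recovery and fit were tested on simulated data. Python 3.11.15, pandas 2.3.3, numpy 2.4.6 and matplotlib 3.10.9 were used.

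Genes and lists were chosen with earlier results of these data known. Named genes were the 20 lowest and 20 highest in the ranking, LINC00511, MMP9, POU4F1, EGR1, MITF and SRA1, up to 8 passing members of a list by size of log2 (where fewer than 2 passed, the 2 largest), and the 5 largest differences each way from another construct that limma called. Others are named as chosen after their values were seen. Counts of list members are over genes with a mean of at least 50. Some members of the lists are counted but not reported by name here.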

Additional observations from a re-analysis of the deposited data

How the results depend on the processing

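All alternatives are of limma, save the authors' threshold: at an adjusted p under 0.01, 405 genes passed in the authors' deposited table (170 higher and 235 lower) against 784. Of the settings that rescale or refilter the libraries, the 1674 calls of SLNCR1 delta cons against vector became 656 with no filter (244 higher and 412 lower) and 207 without a variance trend (11 and 196), and ranged from 271 to 1265 with a library left out (1155 without SLNCR1 cons library a, added after seeing the data). With trimmed-mean factors they were 1512 and with library totals 1658, more of them lower, as the median of all genes shifted by -0.055 and -0.061. The 1108 calls against SLNCR1 cons became 601, 311 and, fitted on only the 4 libraries compared, 3197, and 427 to 581 with a library left out. Against full-length SLNCR1, 0 became 1 with a pseudocount of 10, 2 with only the 4 libraries, and 0 to 1224 with a library left out. LINC00511 kept its value of 0.68 without a trend but lost its call (adjusted p = 0.0908), and was 0.48 to 0.88 with a library left out. Of 173 named genes, 109 lost or missed the threshold without a trend, 91 without SLNCR1 delta cons library b and 90 without vector library a. SHANK1, with no call against vector, ran from -0.38 to 0.21 with a library left out and was above 0 without vector library b. The list counts by limma were also recomputed, as added after seeing the data. The cause of these shifts was not tested. No paired analysis was possible because the recovered libraries carry no replicate numbers. With 2 libraries a group, differences of low genes such as MMP9 have wide intervals.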

Other observations

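Members of 3 lists that the text above only counts had the following values. Among genes of the antioxidant response, the ferritin heavy chain FTH1 had 694 and 763 normalised reads in SLNCR1 delta cons cells against 496 and 572 in vector cells, the peroxiredoxin PRDX1 1561 and 1716 against 1211 and 1301, thioredoxin TXN 871 and 949.6 against 660.0 and 731, the metallothionein MT2A 644 and 687 against 484 and 537 and the quinone reductase NQO1 1923 and 2032 against 1567 and 1648. These 5 rose by 0.30 to 0.45 on the log2 scale in the authors' deposited table. Before scaling, FTH1 had 624 and 604 reads against 612 and 644 and PRDX1 1403 and 1359 against 1495 and 1464. TXN had 783 and 752 against 815 and 823 and MT2A 579 and 544 against 598 and 605. NQO1 had 1728 and 1609 against 1935 and 1855. Among genes of dedifferentiation and invasion, the intermediate filament gene VIM had 1522 and 1629 in SLNCR1 delta cons cells against 1211 and 1272 in vector cells, the WNT inhibitor DKK1 1265 and 1336 against 1009.8 and 1071, and ZEB2, a repressor of E-cadherin, 335 and 388 against 503 and 481. Of the TGF-beta responsive genes, PMEPA1 had 1649 and 1613 in SLNCR1 delta cons cells against 1191 and 1261 in vector cells and TGFBI 3374 and 3370.4 against 2499 and 2749. The part of depth in the rises of these 3 lists was not tested.

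For 2 further genes the same 3 libraries, both of SLNCR1 delta cons and library a of SLNCR1 cons, were highest. COL1A2 had 31.2 and 26.5 normalised reads in SLNCR1 delta cons cells, 1.01 and 11 with full-length SLNCR1, 37.4 in SLNCR1 cons library a and 6 in its library b, against 8.1 and 13.3 in vector cells. AC079949.1, an entry with no symbol, had 23.4 and 27.8 in SLNCR1 delta cons cells, 10.1 and 3.31 with full-length SLNCR1, 21.4 in SLNCR1 cons library a and 5 in its library b, against 2.43 and 9.77 in vector cells. These genes were chosen after their values were seen. SLNCR1 cons library a had reads in 28371 entries and library b in 26755.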
